A study of Homo sapiens with 6 samples.

Results

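Among the genes listed as changed after depletion of RNF5 in LP-1 myeloma cells, 27 entries of the deposited table carried a ZNF name, that is ZNF followed by a number and at most 1 letter. They stood for 26 gene names, since the pseudogene ZNF876P appeared under 2 identifiers, and made up 1.44% of the 1877 genes listed. GENCODE release 29 has 556 such names, of which 509 are protein-coding. Nothing can be said here of ZNF genes outside the table. The annotation has 23 of the 27 entries as protein-coding, and the 4 entries with names ending in P are pseudogenes by name.

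LP-1 is an established line of human multiple myeloma, a tumour of plasma cells. RNA was sequenced in 6 libraries. In 3 of them a short hairpin RNA had lowered RNF5, which encodes a membrane-bound ubiquitin ligase, and the other 3 had a non-target control. All 6 came from the same line, and nothing in the labels says that libraries of one group were grown separately. The p-values therefore set a difference against the spread between these libraries, which may be technical. Values are normalized abundances whose scale is not given, so the depth is unknown. Levels are compared between libraries of a gene. Between genes they serve only for cut-offs on low values, for choosing members to describe and for calling a gene low.

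ZNF proteins bind nucleic acid through zinc fingers, most often of the C2H2 type, in which a pair of cysteines and a pair of histidines hold a zinc ion. Many also carry a KRAB domain, which recruits the co-repressor TRIM28 (KAP1) and through it the histone methyltransferase SETDB1, and many of these bind and silence transposable elements. The family is large in primates, and many of its genes lie in clusters on chromosome 19 that arose by local duplication. Sequences within a cluster are alike, so reads of such a gene can also match its relatives. How far this touched the values of any member, within a cluster or outside one, was not measured.

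RNF5 itself was at 95.40, 81.35 and 88.44 in knockdown libraries 1, 2 and 3 and at 1595, 1649 and 1248 in control libraries 1, 2 and 3, so all knockdown values were far below all control values. Of 11 plasma cell markers, SDC1, ITGB7 and CD28 were listed, all higher in the knockdown. No T, NK, myeloid, erythroid or platelet marker was listed, and of the 13 stromal and epithelial markers COL1A1 and CLDN4 were, both lower and both below 4 in every library. The part of other cells in the results was not tested.

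The ZNF genes moved in both directions. In the table as the authors deposited it, 13 entries were marked as rising and 14 as falling, against 924 and 953 of all genes listed. In 26 of the 27 no knockdown value fell within the range of the controls, 13 entries being higher and 13 lower. Over all genes listed the groups did not overlap in 93.2%. The authors had chosen the table on these libraries, so neither share is independent evidence of a change. In bulk RNA, fewer cells with a transcript and less of it per cell cannot be told apart.

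Of the 27 entries, 20 had a value of at least 1 in at least 3 libraries and entered the test, limma on log2(value + 1) across all 1290 genes that passed the same filter. By limma with Benjamini-Hochberg adjustment, 12 of the 20 rose and 7 fell, and ZNF491 did not pass. Over all genes tested 97.7% passed, 55.7% as higher and 42.0% as lower, so the count of members called says nothing particular about them. The p-values below were adjusted over these 1290 listed genes and not over all genes of the genome. The list was chosen on the same libraries, so these p-values set a difference beside its spread and are not independent evidence of it. All 7 entries below the filter were lower in the knockdown, as were 389 of the 587 genes of the whole table that were left out. The filter therefore removed only falling members, and 5 of the 20 tested (ZNF462, ZNF788P, ZNF491, ZNF385C and ZNF404) reached it through 1 group alone. ZNF618 and ZNF815P had a single control value of at least 1 (1.08 and 1.09), so they too needed their knockdown values to reach the filter. For all of these members the filter itself favours a difference, so their calls below are a description and no support. The median log2 fold change of the 20 was 0.78, beside 0.73 over all genes tested. Among the rising members it was 1.06, beside 1.13 over all rising genes, and among the falling ones -0.78, beside -0.91.

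**Figure D1:**
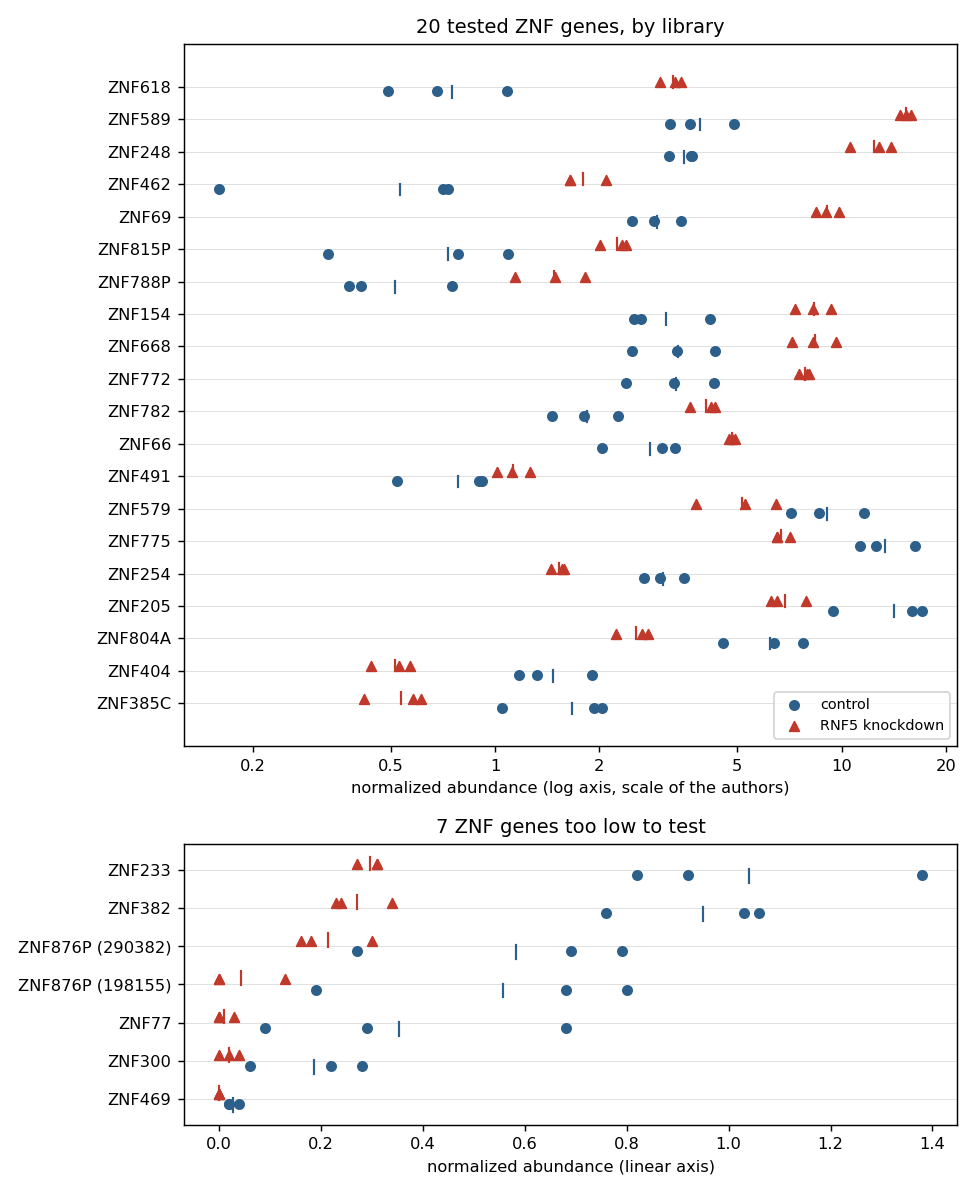
Normalized abundance of each ZNF entry in the 6 libraries (circles, control; triangles, RNF5 knockdown; short vertical lines, group means), with the 20 tested genes on a log axis above and the 7 that were too low to test on a linear axis below. The groups overlap for 1 entry, ZNF876P (ENSG00000290382), and all 7 entries in the lower panel have the lower mean in the knockdown.

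On this scale 7 of the 20 rose at least 2-fold (35.2% of all genes tested did) and none fell by as much (16.7% did). Adding 1 before taking logarithms shrinks the change of low genes, and with a pseudocount of 0.1 the counts were 11 and 3. When the knockdown values were rescaled by the median gap between ratios of means and deposited fold changes, they were 5 and 3. Over all 1290 genes tested the counts were 692 and 338 with that pseudocount and 351 and 324 after rescaling, in place of 454 and 216. By the plain ratio of means, 11 entries were at least 2-fold higher and 12 at least 2-fold lower, counting ZNF469, which was at 0 in the knockdown. Of these 12, 5 had been tested. The ratio counts have no share over all genes beside them, and every member was deposited with a change of more than 2-fold. None of the 20 changed direction in any of the 14 alternatives in which it was fitted.

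ZNF589, a KRAB zinc finger gene also known as SZF1 and linked to haematopoietic stem cells, showed the largest rise on the tested scale. It was at 15.35, 15.81 and 14.68 in the knockdown libraries and at 4.88, 3.65 and 3.20 in the control libraries. Its mean rose 3.91-fold, from 3.91 ± 0.870 to 15.28 ± 0.568 (SD, n = 3 each; log2 fold change 1.74, SE 0.20, limma adjusted p = 1.75e-05). The knockdown values lay close together, and all were far above the highest control value. ZNF248, another KRAB gene, was at 10.56, 13.85 and 12.80 in the knockdown and at 3.67, 3.69 and 3.17 in the control. It rose 3.53-fold (log2 fold change 1.57, SE 0.19, limma adjusted p = 2.77e-05), and its 3 control values lay close together while the knockdown values spread more widely.

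ZNF69, a KRAB gene of chromosome 19, rose 3.10-fold, from 3.44, 2.48 and 2.87 in the control libraries to 8.45, 8.99 and 9.84 in the knockdown libraries (log2 fold change 1.37, SE 0.19, limma adjusted p = 6.77e-05). ZNF618 encodes a partner of UHRF2, a reader of hydroxymethylated DNA. It was low in the control, at 1.08, 0.68 and 0.49, and reached 3.0, 3.44 and 3.31 in the knockdown. By the ratio of means it rose most of all tested members, 4.33-fold, but on the log2(value + 1) scale it came after ZNF69, with a log2 fold change of 1.29 (SE 0.17, limma adjusted p = 4.84e-05). The order of the largest rises thus depended on the scale.

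ZNF154, whose promoter is often found methylated in tumours, rose 2.67-fold, from 4.18, 2.63 and 2.52 in the control libraries to 7.32, 9.32 and 8.25 in the knockdown libraries (log2 fold change 1.19, SE 0.21, limma adjusted p = 0.000303). ZNF668, a gene without a KRAB domain whose product acts on the p53 pathway, rose 2.47-fold, from 3.34, 4.31 and 2.49 to 9.65, 7.17 and 8.25 (log2 fold change 1.11, SE 0.22). ZNF772, a KRAB gene near ZNF154, rose 2.36-fold, from 4.28, 3.29 and 2.38 to 7.53, 7.94 and 8.04 (log2 fold change 1.06, SE 0.21). Each of these genes kept every knockdown value above every control value. Their log2 fold changes differed from each other by less than 1 SE.

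ZNF462 encodes a very large protein with many fingers, and its loss in people causes a developmental disorder. It was at 1.64, 2.09 and 1.65 in the knockdown and at 0.73, 0.71 and 0.16 in the control, a 3.36-fold rise of the mean (log2 fold change 0.89, limma adjusted p = 0.000504). ZNF782 rose 2.20-fold, from 2.26, 1.46 and 1.8 to 3.65, 4.19 and 4.30 (log2 fold change 0.84). ZNF66 rose 1.73-fold, from 3.30, 2.03 and 3.04 to 4.82, 4.91 and 4.73 (log2 fold change 0.63, SE 0.20, limma adjusted p = 0.00877), the smallest of the 12 rises. Its knockdown values were nearly equal, and the spread lay in the control libraries.

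The pseudogenes ZNF815P and ZNF788P rose as well. ZNF815P was at 2.01, 2.39 and 2.33 in the knockdown and at 1.09, 0.78 and 0.33 in the control (log2 fold change 0.93, limma adjusted p = 0.000484). ZNF788P was at 1.14, 1.82 and 1.49 in the knockdown and at 0.38, 0.75 and 0.41 in the control (log2 fold change 0.71, limma adjusted p = 0.000849). Both have no product of their own that the annotation recognises, and reads from coding relatives could be among their values.

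ZNF491 was listed by the authors as higher, with a log2 fold change of 1.03 in the authors' deposited table. Its library values were 1.12, 1.01 and 1.26 in the knockdown and 0.52, 0.92 and 0.90 in the control. These gave a 1.45-fold difference of means and a log2 fold change of 0.27 (95% interval -0.04 to 0.57, limma adjusted p = 0.0832, range 0.0243 to 0.298 over its alternatives). The groups did not overlap, but the gap between the nearest values was small beside the spread within the control. With the trend of fold change on gene length removed, ZNF491 passed (log2 fold change 0.38, limma adjusted p = 0.0243).

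ZNF804A, a gene with a single C2H2 finger known as a risk locus for psychiatric disease, had the largest of the 7 tested falls on the log2(value + 1) scale, though ZNF385C and ZNF404 fell more by the ratio of means and with a pseudocount of 0.1. It was at 2.23, 2.77 and 2.66 in the knockdown and at 7.72, 6.39 and 4.53 in the control, 2.43-fold lower in the mean (log2 fold change -0.9997, SE 0.21, limma adjusted p = 0.000903), which is just short of the 2-fold line on the tested scale. ZNF385C, a relative of ZNF385A with widely spaced fingers, fell 3.11-fold by the ratio of means, from 2.03, 1.93 and 1.05 to 0.42, 0.61 and 0.58. On the tested scale that was a log2 fold change of -0.78 (SE 0.17, limma adjusted p = 0.000864), less than for ZNF804A, because its values were low.

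ZNF205 fell 2.05-fold, from 15.91, 17.07 and 9.43 in the control libraries to 7.87, 6.52 and 6.25 in the knockdown libraries (log2 fold change -0.91, SE 0.23, limma adjusted p = 0.00270). Control library 3 stood well below the other controls but above every knockdown value. ZNF775 was at 12.56, 16.21 and 11.29 in the control and at 7.08, 6.52 and 6.49 in the knockdown (1.99-fold lower, log2 fold change -0.89, SE 0.19). ZNF579 had the smallest fall of the 7 by the ratio of means, from 8.57, 11.56 and 7.13 to 5.25, 3.80 and 6.45 (1.76-fold lower, log2 fold change -0.71, SE 0.23, limma adjusted p = 0.0113). Its nearest values, 6.45 and 7.13, were close. It no longer passed without knockdown library 2 (limma adjusted p = 0.0651) or without control library 2 (0.0579), with a range of 0.00384 to 0.0651 over its alternatives.

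ZNF254, a KRAB gene of a cluster on chromosome 19, fell 2.0-fold, from 3.50, 2.99 and 2.69 to 1.56, 1.58 and 1.45 (log2 fold change -0.68, SE 0.17, limma adjusted p = 0.00233). A long non-coding RNA gene on the same strand, ENSG00000268362 (AC092279.1 in GENCODE 29), overlaps ZNF254 and was listed too. It went the other way, from 3.04, 3.30 and 1.92 in the control to 5.36, 6.24 and 6.07 in the knockdown (2.14-fold higher, log2 fold change 0.89, SE 0.21, limma adjusted p = 0.00151). No source used here says how reads were shared between the overlapping pair, and the pair was singled out after its values were seen. ZNF404, also a KRAB gene of chromosome 19, fell 2.86-fold by the ratio of means, from 1.32, 1.91 and 1.17 to 0.53, 0.57 and 0.44 (log2 fold change -0.69, SE 0.14, limma adjusted p = 0.000696).

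**Figure D2:**
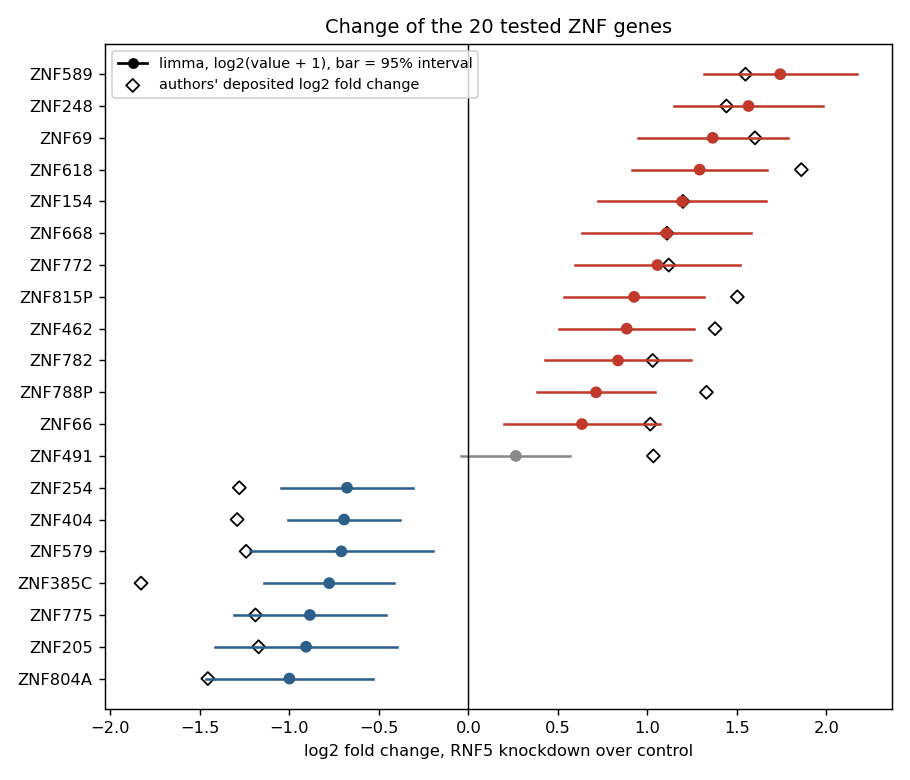
Log2 fold change of the 20 tested ZNF genes from limma on log2(value + 1) (filled circles, bars are 95% intervals; red rose, blue fell, grey did not pass) beside the authors' deposited log2 fold change (open diamonds). The interval of ZNF491 is the one that spans 0, and for all 7 fallen genes the deposited value is further from 0.

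The 7 entries below the filter had no test, and they were all lower in the knockdown. ZNF233 was at 0.27, 0.31 and 0.31 in the knockdown against 1.38, 0.82 and 0.92 in the control. ZNF382, a KRAB gene often silenced by promoter methylation in tumours, was at 0.34, 0.23 and 0.24 against 0.76, 1.03 and 1.06. Neither overlapped between the groups. Their means were 3.51-fold (ZNF233) and 3.52-fold (ZNF382) lower, more than for any tested fall by that measure, but on the log2(value + 1) scale (-0.64 and -0.62) less than for any. ZNF300 was at 0, 0.02 and 0.04 against 0.22, 0.06 and 0.28, and ZNF77 was at 0.03, 0 and 0 against 0.29, 0.68 and 0.09. These KRAB genes were close to absent in the knockdown and low and uneven in the control. ZNF469, a very large gene whose loss causes brittle cornea syndrome, was listed at 0 in all 3 knockdown libraries and at 0.04, 0.02 and 0.02 in the control libraries. At the 2 decimals of the table that difference is a few of the smallest steps, and no fold is given.

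The pseudogene ZNF876P showed how far an annotation can split one name. Under ENSG00000198155 it was at 0, 0.13 and 0 in the knockdown and at 0.68, 0.80 and 0.19 in the control. Under ENSG00000290382 it was at 0.18, 0.16 and 0.30 in the knockdown and at 0.79, 0.27 and 0.69 in the control. Knockdown library 3 (0.30) passed control library 2 (0.27), which makes this the only entry of the 27 whose groups overlapped. GENCODE 29 does not hold the second identifier.

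The exact 2-sided permutation test of the library values gave p = 0.1 for each of the 26 entries without overlap, which is the smallest p that 3 against 3 libraries allow. Control library 3 had the lowest control value in 15 of the 20 tested members, and knockdown library 1 the lowest knockdown value in 11. The lowest library was not counted over all genes tested, so neither number is read as particular to the members. Without control library 3, 12 rises and 7 falls were still called (709 and 553 over all genes tested, in place of 718 and 542). However, 5 members were then at least 2-fold higher and 2 at least 2-fold lower, in place of 7 and 0. Over all 1290 genes tested these counts were 380 and 276, in place of 454 and 216. Without knockdown library 2 or 3, 1 member was at least 2-fold lower (231 and 219 of all genes tested). The cause was not tested.

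For 20 of the 26 entries with a ratio the log2 ratio of the library means lay above the value in the authors' deposited table, by a median of 0.18 over the 26 and by up to 0.43 (ZNF579). Over the 431 listed genes with both means at least 5 the same median was 0.17. For the other 6, ZNF66, ZNF382, ZNF404, ZNF491, ZNF77 and ZNF876P (ENSG00000198155), it lay below, by 0.50 for ZNF491 and 0.84 for ZNF77 on the log2 scale. The deposited fold changes therefore differ from plain ratios of the library means. ZNF66, ZNF782 and ZNF491 stood closest to the authors' line of a 2-fold change, with log2 fold changes of 1.02, 1.03 and 1.03 in the authors' deposited table.

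By RefSeq's annotation of GRCh38.p14, 12 of the 26 names lie on chromosome 19, 6 listed as higher and 6 as lower, beside 32 higher and 34 lower among the other listed genes of that chromosome. The submitters' processing notes name hg19, so the RefSeq annotation is used here for gene order and for reference promoter sequence, and no deposited value is placed by its coordinates. Along the chromosome the listed directions of the 12 members came in runs, with the other listed genes left out of the order. ZNF491 did not pass, and ZNF77, ZNF382 and ZNF233 were too low to test. ZNF77 was lower, then ZNF491, ZNF69, ZNF788P and ZNF66 were higher, then ZNF254, ZNF382, ZNF404, ZNF233 and ZNF579 were lower, and ZNF772 and ZNF154 at the far end were higher. ZNF491 and ZNF69 are separated by 2 genes, ZNF69 and ZNF788P by 5, ZNF404 and ZNF233 by 12, all of them zinc finger genes by name, and ZNF772 and ZNF154 by 11, of which 10 are. The genes counted between members are protein-coding genes of RefSeq, and most neighbours in the order are far apart. ZNF66 and ZNF254, with 26 genes between them of which 25 are zinc finger genes by name, went in opposite directions. No test of the runs was made.

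**Figure D3:**
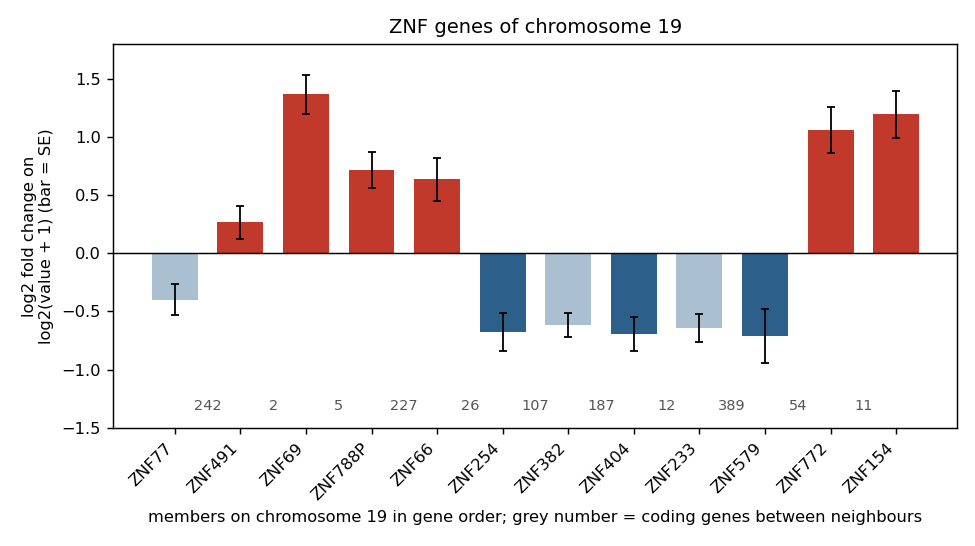
Log2 fold change on the log2(value + 1) scale of the 12 members on chromosome 19 in gene order, from the fit without a filter (bars, red higher, with ZNF491 among them although it did not pass, and blue lower; pale bars are members below the filter; error bars are 1 SE; grey numbers count the RefSeq coding genes between neighbours). Members next to each other mostly share a direction, with changes between ZNF77 and ZNF491, between ZNF66 and ZNF254 and between ZNF579 and ZNF772.

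Elsewhere, all 3 members of chromosome 9 (ZNF782, ZNF462 and ZNF618) rose. On chromosome 16 ZNF668 rose while ZNF205 fell and ZNF469 was lower, and on chromosome 7 ZNF815P rose while ZNF775 fell.

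The upstream sequences of members next to each other on chromosome 19, with fewer than 30 coding genes between them, are shown to set how alike their windows are beside how they moved. RefSeq's promoter table (GRCh38.p14) held 19 of the 26 names and both members of 3 such pairs. Each line gives the 250 bases before the gene's start, 5′ to 3′ on the gene's own strand, with the longest run that the pair shares in capitals. ZNF491 (chr19:11798273-11798522, plus strand) and ZNF69 (chr19:11887532-11887781, plus strand) share a run of 22 bases about as far from either start.
ZNF491: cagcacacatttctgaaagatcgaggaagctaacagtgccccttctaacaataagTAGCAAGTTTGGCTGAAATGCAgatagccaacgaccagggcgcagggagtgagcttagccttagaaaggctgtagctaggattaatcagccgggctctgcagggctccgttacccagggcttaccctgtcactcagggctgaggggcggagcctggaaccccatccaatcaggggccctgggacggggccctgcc
ZNF69: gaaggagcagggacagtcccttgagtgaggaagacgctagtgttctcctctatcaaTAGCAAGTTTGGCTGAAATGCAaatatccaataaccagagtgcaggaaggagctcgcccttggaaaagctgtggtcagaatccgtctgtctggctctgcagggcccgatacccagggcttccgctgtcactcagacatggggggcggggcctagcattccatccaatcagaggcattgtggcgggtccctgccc

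The run begins 195 bases before the start of ZNF491 and 194 bases before that of ZNF69. It was found in 4 of 35116 windows, all 4 of ZNF genes. Over a global alignment the 2 windows were identical in 188 of 261 columns (72.0%), and both hold the GC box GGGCGG and the box CCAAT on either strand. Of this pair ZNF69 rose (log2 fold change 1.37) and ZNF491 did not pass (0.27), and the difference between them was not tested.

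ZNF66 (chr19:20776054-20776303, plus strand), which rose, and ZNF254 (chr19:24086937-24087186, plus strand), which fell, share a run of 28 bases.
ZNF66: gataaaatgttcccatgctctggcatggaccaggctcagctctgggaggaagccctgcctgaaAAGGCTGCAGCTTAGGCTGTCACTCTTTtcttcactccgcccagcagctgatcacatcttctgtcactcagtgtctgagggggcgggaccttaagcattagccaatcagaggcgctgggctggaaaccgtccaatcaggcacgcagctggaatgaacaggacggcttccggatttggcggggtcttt
ZNF254: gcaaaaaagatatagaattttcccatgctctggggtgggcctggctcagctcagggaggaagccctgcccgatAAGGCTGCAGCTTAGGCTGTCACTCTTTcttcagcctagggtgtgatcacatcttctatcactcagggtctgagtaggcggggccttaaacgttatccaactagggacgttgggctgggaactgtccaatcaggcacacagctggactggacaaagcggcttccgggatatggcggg

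This run begins 187 bases before the start of ZNF66 and 177 bases before that of ZNF254, and was found in 3 of 35116 windows, all 3 of ZNF genes. The windows were identical in 203 of 261 aligned columns (77.8%), and both hold the box CCAAT and the ETS core CCGGAAG. Over all 171 pairs of the 19 windows, read in gene sense, the longest shared run had a median of 8 bases, and the runs of ZNF66 with ZNF254 and of ZNF491 with ZNF69 were the longest. The pair with the longest shared run thus belonged to members that went in opposite directions.

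ZNF772 (chr19:57477567-57477816, minus strand) and ZNF154 (chr19:57709205-57709454, minus strand), which both rose, share a shorter run of 12 bases.
ZNF772: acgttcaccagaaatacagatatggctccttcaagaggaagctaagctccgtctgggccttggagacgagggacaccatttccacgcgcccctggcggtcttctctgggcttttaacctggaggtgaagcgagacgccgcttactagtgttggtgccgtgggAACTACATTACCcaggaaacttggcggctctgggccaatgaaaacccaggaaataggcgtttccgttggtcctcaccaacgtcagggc
ZNF154: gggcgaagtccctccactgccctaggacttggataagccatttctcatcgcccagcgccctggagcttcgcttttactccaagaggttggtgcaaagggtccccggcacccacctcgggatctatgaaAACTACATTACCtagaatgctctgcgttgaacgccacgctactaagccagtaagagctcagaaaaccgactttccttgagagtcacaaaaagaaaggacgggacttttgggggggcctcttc

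Here the run begins 88 bases before the start of ZNF772 and 122 bases before that of ZNF154, and it was found in 14 of 35116 windows, 12 of them of ZNF genes (556 windows). Over a global alignment the pair was identical in 49.8% of columns, no more than ZNF69 with ZNF154 (50.5%) or ZNF491 with ZNF772 (51.9%). The shared run is a description of the sequence and not of a site that was seen to be bound.

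Short promoter motifs were counted on both strands in the 250 bases before the start of the 19 matched members and of all 35116 entries. The box CCAAT was in 11 of the 19 (57.9%) against 32.0% of all windows, the GC box GGGCGG in 10 (52.6%) against 42.6%, and the ETS core CCGGAAG in 4 (21.1%) against 8.52%. The antioxidant response element core TGACNNNGC was in 2, ZNF775 and ZNF668 (10.5% against 10.9%), of which ZNF775 fell and ZNF668 rose. The TATA box TATAAA was in 1, ZNF589 (5.26% against 10.7%). The cyclic AMP element TGACGTCA, the YY1 core AAGATGG and the heat shock element with 3 units were in none of the 19, against 1.65%, 3.70% and 0.44% of all windows. The 19 windows held a median of 13 CpG pairs, against 11 over all. These are letter matches and not binding sites. The motifs were not counted over all ZNF windows, and windows of related members are alike. The shares are therefore not read as particular to the listed members.

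Proteins were compared by patterns searched in the translated longest coding transcript of GENCODE 29. The core of the KRAB A box was found in 7 of the 11 coding members listed as higher and in 6 of the 12 listed as lower, beside 53.2% of the 509 coding ZNF genes of the annotation. With the KRAB core and higher were ZNF589, ZNF248, ZNF69, ZNF154, ZNF772, ZNF782 and ZNF66, and with it and lower were ZNF205, ZNF254, ZNF404, ZNF382, ZNF300 and ZNF77. Classical C2H2 fingers numbered between 1 in ZNF804A and 33 in ZNF462, with a median of 10 among coding members listed as higher, 8.5 among those listed as lower and 10 over all coding ZNF genes. Members with and without the KRAB core, and with few or many fingers, were found in both directions.

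The median G+C content of the transcript was close in coding members listed as higher (43.5%) and as lower (44.9%). At a transcript G+C content of 60% or more, a line chosen after the values were seen, 1 coding member was higher (ZNF668) and 5 were lower (ZNF205, ZNF385C, ZNF469, ZNF579 and ZNF775). Below it 10 were higher and 7 lower. Among the other coding genes listed, 111 were higher and 112 lower at 60% or more (49.8% higher) and 394 higher and 627 lower below it (38.6% higher), so there the G+C-rich genes were more often higher. The median exonic length of coding members was 5521 bases among those listed as higher and 4231 among those listed as lower, and over the other coding genes it was 5413 and 4533. With the trend of fold change on gene length removed, the 12 rises and 7 falls all passed again. No test of these differences was made, and the part of base composition in the results was not tested.

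**Figure D4:**
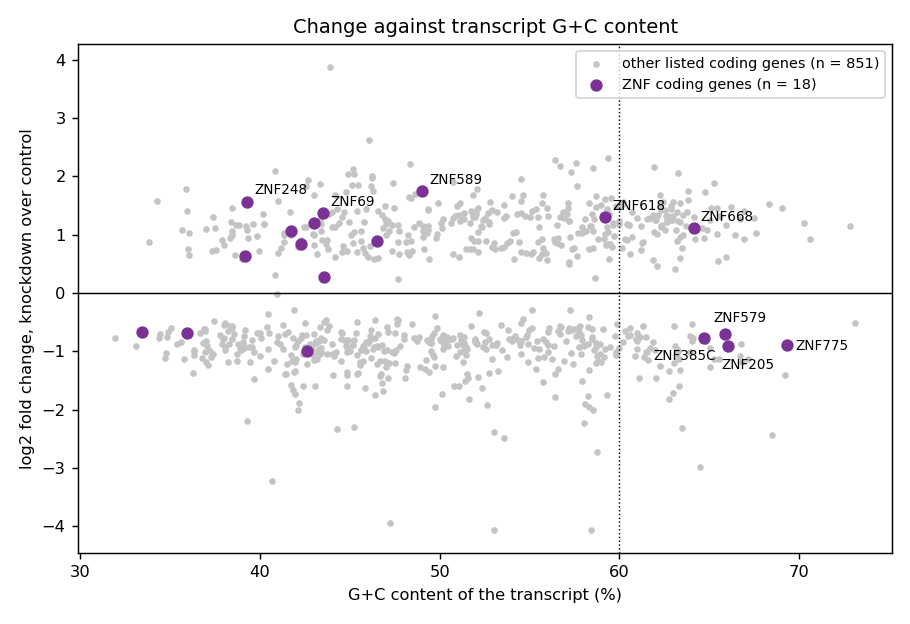
Log2 fold change on the log2(value + 1) scale against the G+C content of the transcript for 18 tested coding ZNF genes (purple) and 851 other tested coding genes (grey), with the dotted line at 60%. At the right of the line ZNF668 lies above 0 and ZNF205, ZNF385C, ZNF579 and ZNF775 lie below it.

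Genes that ZNF proteins work with were looked up by list. The share of all measured genes that the authors listed is not known here, so these counts cannot be called few or many. Among 33 genes of the KRAB co-repressor and heterochromatin machinery, UHRF1, which brings DNA methyltransferase to replicated DNA, was the only one listed, and it rose from 5.63, 6.99 and 3.09 in the control libraries to 15.68, 15.42 and 15.58 in the knockdown libraries (2.97-fold, log2 fold change 1.46, SE 0.24, limma adjusted p = 0.000185). TRIM28 and SETDB1 have no values here. Other C2H2 families were counted in the same way. Of 29 SCAN-type genes the imprinted gene PEG3 was listed and rose (log2 fold change 0.91), and of 28 genes with ZFP, ZIM or ZIK and related names ZFP92 was listed as higher and was too low to test. Of 43 BTB-type genes ZBTB43 was listed as lower and did not pass (limma adjusted p = 0.0738), with 21.96, 7.99 and 7.91 in the knockdown and 19.99, 15.73 and 18.33 in the control. Of 31 SP, KLF and EGR genes 4 were listed, of which KLF5 (log2 fold change -1.28) and KLF15 (-0.75) fell, EGR1 rose (1.44; library values 1.59, 2.12 and 1.77 against 0.05, 0.04 and 0.02, so that the pseudocount sets the size) and EGR3, listed as higher, was too low to test.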

How the data were processed

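RNA-seq of 6 LP-1 libraries (3 RNF5 knockdown, 3 control) was used. The tool Bowtie 0.12.2 and the build hg19 are named, without a role, per the submitters' processing notes. No source used here says how reads were counted and normalized. The table deposited by the authors holds 1877 selected genes with a normalized signal per library in 2 decimals and group means. It also holds the fold ratio deposited by the authors, its log2 value deposited by the authors, and the p-value and adjusted p-value deposited by the authors, whose test is not named. Depth is unknown.

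limma 3.58.1 (R 4.3.3), with a mean-variance trend, was fitted to log2(value + 1) for genes with a value of at least 1 in at least 3 libraries (1290 kept, 587 left out), with group as the single term. Genes were called at a Benjamini-Hochberg adjusted p under 0.05 over all of them, and as at least 2-fold where the log2 fold change was also 1 or more in size. The script was tested on simulated data. Lengths, transcripts and gene types came from GENCODE 29 (26 of 27 entries matched) and promoters from RefSeq (19 of 26 names). The members and lists were chosen with earlier results of these data known. Values were to be given for the 10 members with the highest mean, the largest called rises and falls with a mean of at least 1, members at 0 in a group and members not called. The remaining entries were added after their values were seen. The 14 alternatives changed the pseudocount, filter, trend, scaling, length trend, replicate block or left out a library. The result of 1 further list of zinc finger genes is not reported here.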

Additional observations from a re-analysis of the deposited data

How the results depend on the processing

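The 12 rises and 7 falls among the ZNF genes were unchanged with either other pseudocount, without the mean-variance trend, with the knockdown values rescaled by the median gap between ratios of means and deposited fold changes, with the length trend removed apart from ZNF491, which then passed as a 13th rise (log2 fold change 0.38), and with the replicate block. Over all genes tested these settings gave 644 to 721 rises and 514 to 556 falls, beside 718 and 542 in the main fit. With the length trend removed, 1187 genes were tested in place of 1290. Nearly all genes passed each time, so the unchanged counts say nothing particular about the ZNF genes. Same-numbered libraries did not deviate together (r = -0.165, -0.071 and -0.082). That gives no sign of a pairing by number but cannot show its absence, and the labels do not say. The replicate block again gave 12 rises and 7 falls. Without a filter 13 ZNF genes and 882 of all genes fell. The median log2 fold change of the ZNF genes changed sign, to -0.038, because the 7 added entries are all lower. That median is the value of ZNF469, which was at or near 0 in every library. A median over members of both directions depends on how many of each are kept, so it is not a typical change. The median over all listed genes changed sign too, to -0.097. With a value of at least 5 in 3 libraries, 9 ZNF genes were left (6 rises, 3 falls, median 1.11). At that filter 363 of all genes rose and 291 fell, with a median of 1.01 over all genes tested. With a pseudocount of 0.1 the ZNF median was 1.18, beside 1.14 over all genes tested. At that setting 11 ZNF genes were at least 2-fold higher and 3 at least 2-fold lower (692 and 338 of all 1290). With 0.5, 2 ZNF genes were at least 2-fold lower, beside 288 of all. After the knockdown values were rescaled by that median gap, 3 ZNF genes were at least 2-fold lower, beside 324 of all genes tested. The median over all genes tested then moved from 0.73 to 0.61. Leaving out a library in turn gave 12 rises each time, 6 to 7 falls and a median of 0.69 to 0.86. It gave 5 to 8 at least 2-fold rises and 0 to 2 at least 2-fold falls. Over all genes there were 709 to 719 rises and 518 to 553 falls. Of these, 380 to 495 rises and 190 to 276 falls were at least 2-fold. ZNF579 did not pass without knockdown library 2 (-0.54, adjusted p = 0.0651) or control library 2 (-0.54, adjusted p = 0.0579). The cause was not tested where none is given.

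The unknown scale and depth limit what can be said of values near the table's second decimal, which are ZNF469, ZNF300 and ZNF77.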

Other observations

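Among the listed genes, 2 others have names that begin with ZNF but fall outside the naming rule. The pseudogene ZNF37BP was at 3.33, 4.74 and 3.14 in the knockdown libraries and at 1.55, 1.37 and 0.88 in the control libraries, a 2.95-fold rise (log2 fold change 1.06, SE 0.20, limma adjusted p = 0.000410). ZNF778-DT, a divergent transcript at ZNF778, was at 9.03, 9.22 and 9.51 against 3.76, 3.44 and 3.97, a 2.49-fold rise (log2 fold change 1.12, SE 0.18, limma adjusted p = 0.000164). Both rose with no overlap between the groups, and ZNF778 itself has no values here.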
